A study of Mus musculus with 2 samples.

Results

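The genes described here encode sensor cation channels of 5 kinds: the transient receptor potential (TRP) families with the mucolipins and polycystin-2 relatives, the acid-sensing ion channels (ASIC), the hyperpolarisation-activated channels (HCN), the cyclic nucleotide-gated channels (CNG) and the mechanically activated PIEZO channels. Members were taken by symbol alone, as every gene identifier in both count files whose mouse symbol starts with Trpa, Trpc, Trpm, Trpv, Hcn, Cnga or Cngb and a digit, or with Mcoln, Pkd2, Piezo or Asic. The rule left out Trpc4ap, which encodes a protein that binds TRPC channels, and 1 Trpm gene. It found 44 members among 37681 gene identifiers, of which 43 are channel genes and 1, Trpc5os, is a gene opposite Trpc5 that encodes no channel. The rule itself uses no measured value, but it was set with earlier results of these data known.

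The RNA came from stomach cells of C57BL/6 mice carrying an Hdc-CFP transgene, in which cyan fluorescent protein marks cells that use Hdc, the gene of the histamine-making enzyme histidine decarboxylase. The cell type label names the stomach for the sorted cells, and corpus epithelium only for the depleted cells. The 2 groups hold 1 library each: Hdc-CFP-positive cells obtained by sorting (the sorted library), and corpus epithelial cells from which those cells had been removed (the depleted library). Both groups share the strain and the transgene, and the reporter can mark any cell type in which the transgene is active. Neither the age, sex or number of mice nor any pooling of mice is stated in the sources used here. The study's title names the question, the cellular origins of serotonin-expressing and of enterochromaffin-like cells. Enterochromaffin-like cells are endocrine cells of the corpus that secrete histamine.

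HCN channels open when the membrane hyperpolarises and carry the pacemaker current of heart and neurons. ASICs are sodium channels opened by extracellular protons, and CNG channels carry the current of photoreceptors and olfactory neurons. TRP channels respond to ligands, phospholipase C, temperature, calcium or lysosomal lipids, and PIEZO channels open when the membrane is stretched. In the stomach such channels are studied in acid-exposed epithelium and in endocrine cells, which are electrically excitable and release their content when calcium enters.

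Reads assigned to genes numbered 10736538 in the sorted library and 50928524, or 4.74 times as many, in the depleted one. Hdc had 106553 counts in the sorted library and 951 in the depleted library, a ratio of 413 [388 to 441], in the direction of the labels. Levels are given as normalised CPM, which are counts divided by library depth after trimmed-mean scaling, and values between genes are compared only per kilobase of exon. Square brackets hold exact 95% intervals, which cover counting error only, since reads are not independent molecules and each group has 1 library. For that reason no comparison has a replicate check or a p-value, and every difference is one between these libraries. In bulk RNA, fewer cells of a type and less RNA per cell cannot be told apart. For ratios and calls a count of 0 was set to a floor of 3 counts, which is 0.246 CPM in the sorted library and 0.0668 CPM in the depleted library. The exact 95% upper limit of 0 counts is 0.303 CPM in the sorted library and 0.0822 CPM in the depleted library.

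The lists of marker genes for cell types frame what each library held. All 5 enterochromaffin-like markers were higher in the sorted library (summed level 82718 against 233 CPM), as were all 5 markers of other gastric endocrine cells (5146 against 546 CPM) and all 5 pancreatic acinar genes (9141 against 39.5 CPM). The enterochromaffin-like list includes Hdc itself (8750 CPM in the sorted library), whose direction was set by the sort. Chga alone gave 63985 CPM of that list's sum in the sorted library. The sorted library also held 4 of 4 measured neuron and glia markers at higher level (39.3 against 1.85 CPM) and 4 of 6 mast cell markers (222 against 103 CPM). Lower in the sorted library were 5 of 5 parietal cell markers (1394 against 7894 CPM), 5 of 5 surface mucous markers (3847 against 155442 CPM), 2 of 4 chief cell markers (16534 against 65945 CPM), 5 of 5 measured tuft cell markers (7.14 against 234 CPM) and 6 of 6 macrophage markers (7.56 against 2054 CPM). The part that any of these cell types has in the channel values below was not tested.

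Of the 44 members, 24 were measured, meaning at least 10 counts in at least 1 library. A member is called higher or lower when its ratio was at least 2-fold and its interval excluded 1. By this rule 12 of the 24 were higher in the sorted library (50%) and 6 were lower (25.0%), while 6 were not called. Over all 16682 measured genes the same rule called 21.9% higher and 21.9% lower. The share of higher members was therefore above that of all genes, and the share of lower members was near it. Of the 12 higher members, 6 reached 10 counts in both libraries and 6 only in the sorted library, so the count minimum itself favours a difference for the latter. Of the 6 lower members, 4 reached it in both libraries and 2 only in the depleted library. The median log2 ratio of the 24 was 1.04, beside -0.05 over all measured genes. It is the midpoint between Pkd2l2 (0.515) and Asic3 (1.558, on 10 and 12 counts), with no member between them. Higher calls came from the HCN, ASIC, CNG, TRPC and polycystin genes, and lower calls from the TRPV, TRPM, PIEZO and mucolipin genes.

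**Figure D1:**
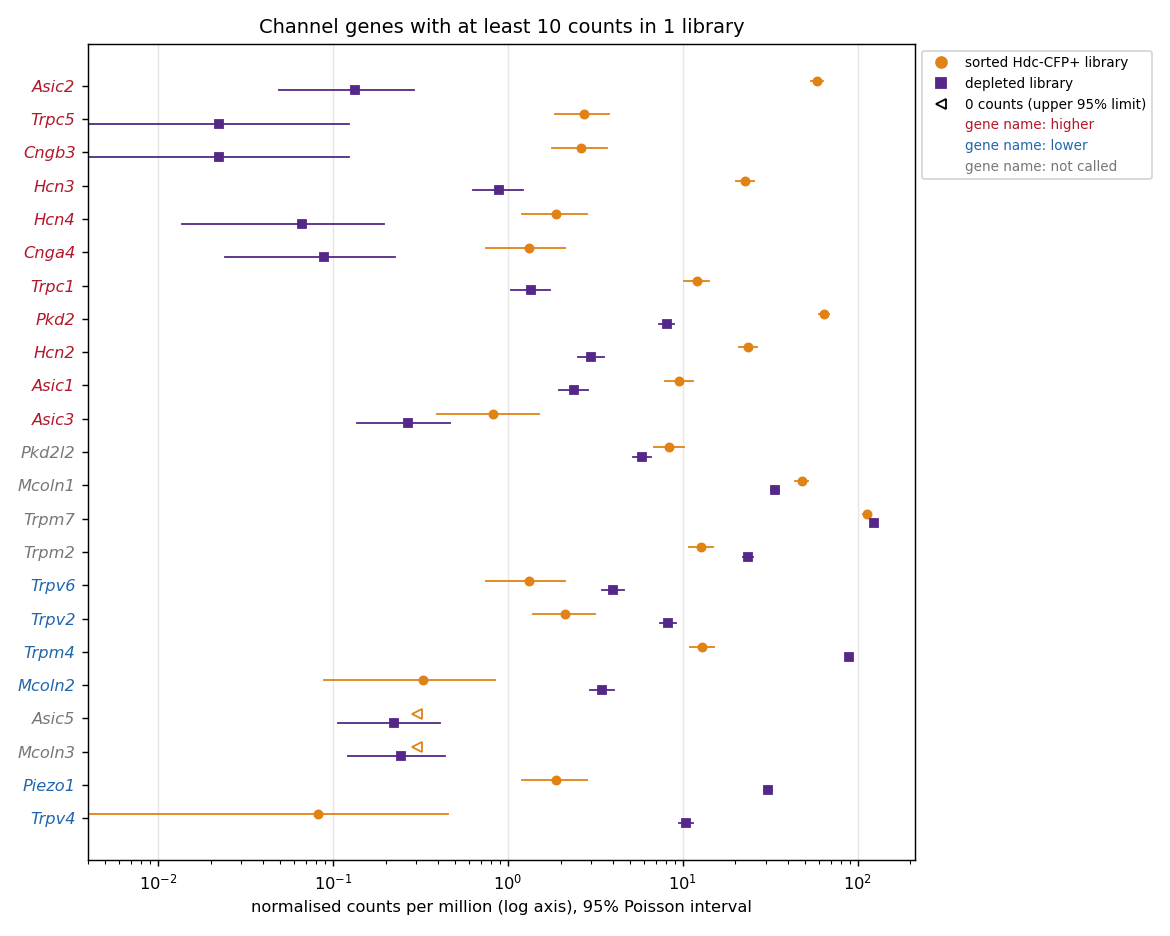
Normalised CPM (log axis) of 23 measured channel genes in the sorted library (orange circles) and the depleted library (purple squares). Lines are exact 95% Poisson intervals, cut at the left edge for genes with 1 count, and open triangles give the upper limit of genes with 0 counts. Asic2, at the top, stood at 58.6 CPM in the sorted library, and Trpv4, at the bottom, at 10.4 CPM in the depleted library.

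Hcn2, Hcn3 and Hcn4 were higher in the sorted library, by ratios from 7.87 to 28.3. Hcn2, which encodes a pacemaker channel common in brain and heart, had 288 counts in the sorted library against 135 in the depleted one. These are 23.7 CPM [21.0 to 26.5] and 3.01 CPM [2.52 to 3.56], a 7.87-fold difference [6.39 to 9.72]. Hcn3, the family member least responsive to cyclic AMP, had 277 and 40 counts, or 22.7 CPM [20.1 to 25.6] and 0.891 CPM [0.636 to 1.21], which differed 25.5-fold [18.3 to 36.5]. Per kilobase of exon, Hcn2 stood above Hcn3 in both libraries, at 7.40 and 5.48 CPM in the sorted library against 0.941 and 0.214 CPM in the depleted one. The exons of Hcn3 overlap those of Pklr on the other strand over 17.1% of their length, and the counting strand is not given in the sources used here, so reads of the genes cannot be told apart there.

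Hcn4, the main pacemaker channel of the sinoatrial node, was close to the detection limit in the depleted library. It had 23 and 3 counts, or 1.89 CPM [1.2 to 2.83] and 0.0668 CPM [0.0138 to 0.195], a ratio of 28.3 [8.54 to 147]. Per kilobase of exon its level was 0.309 CPM in the sorted library against 0.0109 CPM in the depleted one, under Hcn2 and Hcn3 in both.

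The 250 bases upstream of the Hcn2 and Hcn4 start sites are shown because both genes moved the same way and both windows are rich in GC boxes, a 6-base element bound by Sp-family factors. They come from RefSeq on build GRCm38.p6, read 5′ to 3′ along the gene. Capitals mark each GC box, searched as GGGCGG on both strands. The Hcn2 window lies at chr10:79716384-79716633 on the plus strand, has 70.4% G and C and holds 3 GC boxes. The Hcn4 window lies at chr9:58822699-58822948 on the plus strand, has 71.2% G and C and holds 2.
Hcn2: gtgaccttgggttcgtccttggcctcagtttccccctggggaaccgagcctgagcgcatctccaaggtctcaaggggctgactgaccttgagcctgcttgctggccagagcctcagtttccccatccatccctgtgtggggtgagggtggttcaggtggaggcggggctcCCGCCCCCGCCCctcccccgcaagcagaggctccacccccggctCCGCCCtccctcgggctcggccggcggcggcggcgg
Hcn4: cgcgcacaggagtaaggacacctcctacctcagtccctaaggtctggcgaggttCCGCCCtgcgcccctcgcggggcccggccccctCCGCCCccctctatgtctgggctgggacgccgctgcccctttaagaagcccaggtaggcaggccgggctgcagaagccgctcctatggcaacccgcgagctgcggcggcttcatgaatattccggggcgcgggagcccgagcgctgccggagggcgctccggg

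Among the ASIC genes 3 were higher in the sorted library, 1 was not called and 1 was under the count minimum. Asic2, which encodes a proton-gated subunit found mainly in neurons, had 713 counts in the sorted library against 6 in the depleted one. Its level was 58.6 CPM [54.3 to 63.0] against 0.134 CPM [0.049 to 0.291], a 438-fold difference [200.3 to 1198], the highest point estimate of the 24 measured members, although its interval overlaps those of Cngb3 and Trpc5. The interval spans the 413-fold ratio of Hdc itself, as do those of Cngb3 and Trpc5. Per 1000 Hdc counts, Asic2 had 6.69 counts in the sorted library against 6.31 in the depleted one. The same measure was 0.300 and 1.05 for Cngb3 and 0.310 and 1.05 for Trpc5, each with 1 count in the depleted library. For Hcn2 it was 2.70 in the sorted library and 142 in the depleted library, and for Pkd2 it was 7.32 and 382.

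Asic1, the most widely expressed acid sensor of the family, had 116 and 107 counts, or 9.53 CPM [7.87 to 11.4] and 2.38 CPM [1.95 to 2.88], a 4.0-fold difference [3.05 to 5.25]. Asic3, the acid sensor of muscle and heart afferents, had 10 and 12 counts, or 0.821 CPM [0.394 to 1.51] and 0.267 CPM [0.138 to 0.467], a 3.07-fold difference [1.19 to 7.76] that rests on few reads. Asic5, a relative opened by bile acids, had 0 counts in the sorted library against 10 in the depleted one, and at this depth a difference was not detectable. Asic4 had 3 counts in the sorted library and 0 in the depleted library. The make-up of the family per kilobase differed between the libraries. Asic2 took 86.8% of the summed ASIC level in the sorted library and 4.80% in the depleted library, and Asic1 took 10.5% and 63.5%. The summed ASIC level per kilobase was 15.8 CPM in the sorted library and 0.653 CPM in the depleted library.

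Asic2 is also the longest gene among the measured members, with a span of 1088.3 kb, and RefSeq gives it starts that are far apart. The windows of 250 bases before both starts are shown since the counts per gene do not tell which was used. The first lies at chr11:81152904-81153153 on the minus strand and has 66.4% G and C, and the second at chr11:81968397-81968646 on the minus strand and has 51.2%. They are numbered by chromosome coordinate. Along this minus-strand gene the second start is the upstream one. Neither holds a GC box, so neither has capitals.
Asic2, first start: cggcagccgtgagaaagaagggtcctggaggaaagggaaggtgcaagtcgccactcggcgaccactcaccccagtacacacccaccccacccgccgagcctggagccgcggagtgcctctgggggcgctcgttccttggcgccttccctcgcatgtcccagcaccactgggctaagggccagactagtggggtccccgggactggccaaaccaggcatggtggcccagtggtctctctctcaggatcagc
Asic2, second start: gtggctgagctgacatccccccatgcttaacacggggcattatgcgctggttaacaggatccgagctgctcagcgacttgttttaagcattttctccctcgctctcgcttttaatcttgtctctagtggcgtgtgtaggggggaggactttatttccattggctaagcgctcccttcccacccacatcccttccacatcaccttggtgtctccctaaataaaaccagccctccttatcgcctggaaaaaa

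**Figure D2:**
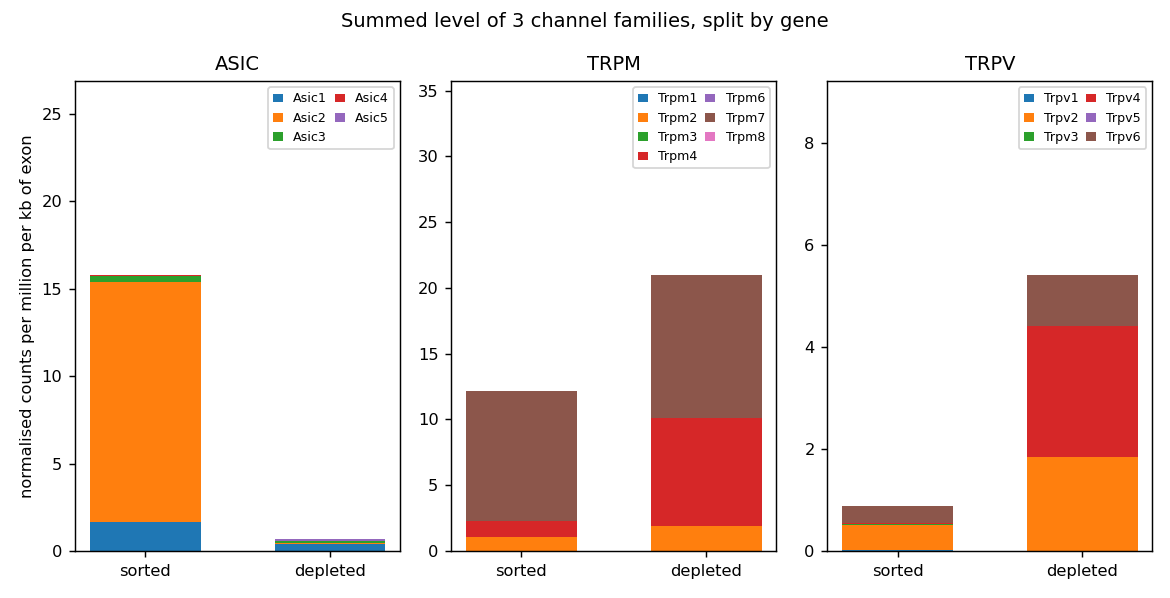
Summed normalised CPM per kilobase of exon of the ASIC, TRPM and TRPV genes in each library, with each bar divided among the family's members and a separate vertical scale per family. The ASIC bar is mostly Asic2 in the sorted library, and the TRPM bar is mostly Trpm7 with Trpm4 in the depleted library.

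CNG channels are built from pore-forming and modulatory subunits, and both CNG genes that were measured encode modulatory ones. Cngb3, the modulatory subunit of cone photoreceptors, had 32 counts in the sorted library against 1 in the depleted one, or 2.63 CPM [1.80 to 3.71] and 0.0223 CPM, a ratio of 118 [19.7 to 4805]. Cnga4, a modulatory subunit of olfactory neurons, had 16 and 4 counts, or 1.31 CPM [0.751 to 2.13] and 0.0891 CPM [0.0243 to 0.228], a 14.7-fold difference [4.76 to 60.6]. The third modulatory subunit gene, Cngb1, had 4 counts in the sorted library and 0 in the depleted library. Of the pore-forming subunits, Cnga1 and Cnga2 had 0 counts in both libraries and Cnga3 had 0 in the sorted library against 2 in the depleted one.

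Of the TRPC genes, whose channels open downstream of phospholipase C, Trpc1 and Trpc5 were measured and both were higher in the sorted library. Trpc1, which forms channels together with other TRPC subunits, had 147 and 61 counts, or 12.1 CPM [10.2 to 14.2] and 1.36 CPM [1.04 to 1.75], an 8.89-fold difference [6.55 to 12.2]. Trpc5, a calcium-permeable channel of neurons that can pair with Trpc1, had 33 counts in the sorted library and 1 in the depleted library, or 2.71 CPM [1.87 to 3.81] and 0.0223 CPM, a ratio of 122 [20.4 to 4950]. Other TRPC genes were near 0: Trpc4 had 1 and 0, Trpc7 had 1 and 1, and Trpc6 had none. Trpc5os also had 0 counts in both libraries.

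Polycystin-2, the product of Pkd2, is a cation channel of the primary cilium and endoplasmic reticulum, and Pkd2 was higher in the sorted library. Its 780 counts in the sorted library against 363 in the depleted one gave 64.0 CPM [59.6 to 68.7] and 8.08 CPM [7.27 to 8.96], a 7.92-fold difference [6.99 to 9.0]. Its relative Pkd2l2, known from testis, had 102 and 263 counts, or 8.38 CPM [6.83 to 10.2] and 5.86 CPM [5.17 to 6.61], and the 1.43-fold ratio [1.13 to 1.80] was under the threshold. Exons of Pkd2l2 overlap Fam13b on the other strand over 10.9% of their length. Pkd2l1, a channel of acid-sensing taste cells and of neurons that contact cerebrospinal fluid, had 1 count in the sorted library and 0 in the depleted library.

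**Figure D3:**
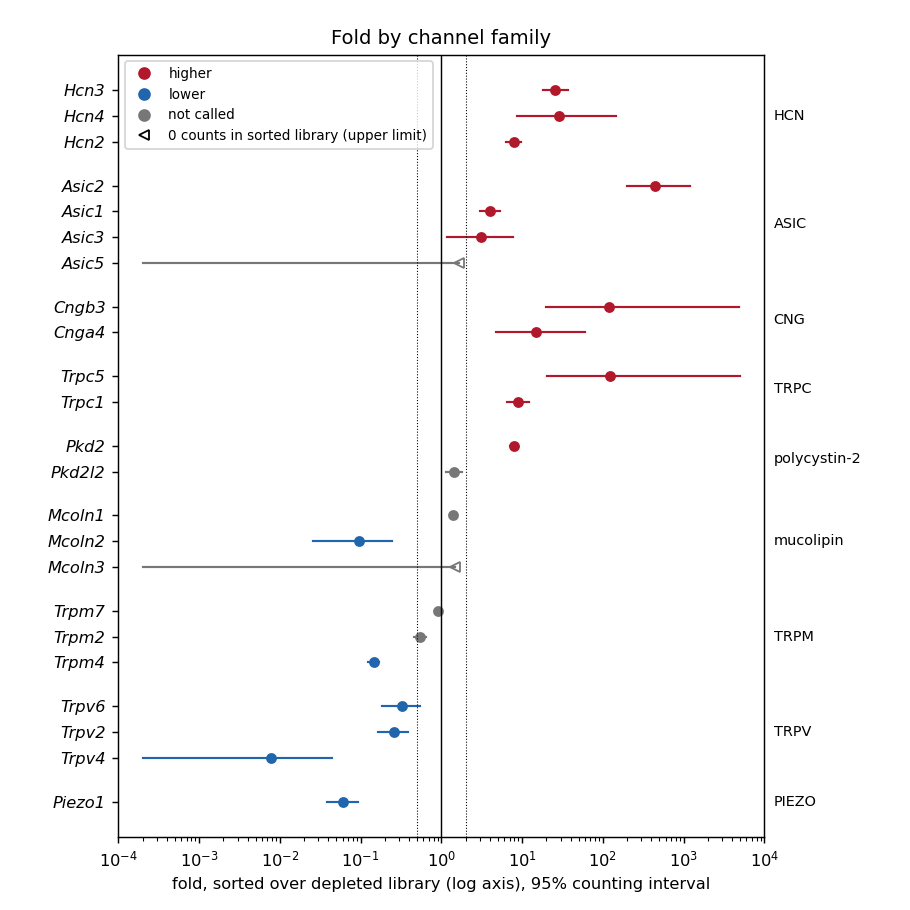
Ratio of the sorted over the depleted library (log axis) for 23 measured channel genes, grouped by family, with 95% counting intervals as lines, a solid line at 1 and dotted lines at 2-fold in either direction. Hcn2, Hcn3 and Hcn4 lie to the right of the dotted lines, and the 3 measured TRPV genes and Piezo1 lie to the left, while open triangles mark genes with 0 counts in the sorted library by their upper limit.

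The mucolipins are cation channels of late endosomes and lysosomes. Mcoln1, which also acts in the membrane trafficking of acid-secreting parietal cells, had 581 and 1517 counts, or 47.7 CPM [43.9 to 51.8] and 33.8 CPM [32.1 to 35.5], a 1.41-fold ratio [1.28 to 1.56] that was not called. Mcoln2, best known from immune cells, was lower in the sorted library, with 4 counts against 156. Its levels were 0.328 CPM [0.0895 to 0.841] and 3.47 CPM [2.95 to 4.06], or 10.6-fold lower [4.05 to 39.3]. Mcoln3, the mucolipin of inner ear hair cells, had 0 counts in the sorted library against 11 in the depleted one, and at this depth a difference was not detectable.

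The TRPM family held both the channel gene with the most counts in either library and a strongly lower member. Trpm7, a ubiquitous channel joined to a kinase that carries magnesium and zinc, had 1367 and 5547 counts, or 112 CPM [106 to 118] and 123 CPM [120 to 127]. The ratio of 0.909 [0.856 to 0.964] turned direction with the scaling, from 0.842 to 1.17 over the scalings tried, so no direction is read from it. Trpm4, a channel for monovalent cations that calcium opens, had 157 and 3985 counts, or 12.9 CPM [11 to 15.1] and 88.7 CPM [86.0 to 91.5], and was 6.88-fold lower among sorted cells [5.87 to 8.13]. Trpm2, which ADP-ribose and oxidative stress open, had 155 and 1058 counts, or 12.7 CPM [10.8 to 14.9] and 23.6 CPM [22.2 to 25.0]. It was 1.85-fold lower [1.56 to 2.20], under the threshold.

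Per kilobase, Trpm7 took 81.4% of the summed TRPM level in the sorted library against 51.9% in the depleted one, and Trpm4 took 9.77% and 39.0%. These sums leave out the Trpm gene that is no member. Of the other TRPM genes, Trpm3, a heat-activated channel of sensory neurons that also responds to a steroid, had 7 counts in the sorted library and 0 in the depleted library. Trpm6, the magnesium channel of gut and kidney, had 2 and 4 counts, the retinal Trpm1 had 1 and 2, and the cold sensor Trpm8 had none.

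The 3 measured TRPV genes were lower in the sorted library. Trpv4, a channel opened by osmotic swelling and warmth in many epithelia, had 1 count in the sorted library against 468 in the depleted one. These are 0.0821 CPM [0.00208 to 0.458] and 10.4 CPM [9.50 to 11.4], and the ratio of the depleted over the sorted library was 127 [22.7 to 5023], the highest such point estimate among the lower members. Trpv2, a calcium-permeable channel prominent in macrophages, had 26 and 371 counts, or 2.13 CPM [1.39 to 3.13] and 8.26 CPM [7.44 to 9.15], and was 3.87-fold lower [2.60 to 6.00]. Trpv6, the calcium-selective channel of absorbing epithelia, had 16 and 180 counts, or 1.31 CPM [0.751 to 2.13] and 4.01 CPM [3.44 to 4.64], and was 3.05-fold lower [1.83 to 5.45]. The capsaicin receptor gene Trpv1 had 1 count in the sorted library and 0 in the depleted library, the keratinocyte channel gene Trpv3 had 2 and 0, and Trpv5, the renal relative of Trpv6, had none.

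Piezo1, the stretch-activated channel of epithelium and blood vessels, had 23 counts in the sorted library against 1385 in the depleted one. Its levels were 1.89 CPM [1.2 to 2.83] and 30.8 CPM [29.2 to 32.5], or 16.3-fold lower among sorted cells [10.8 to 25.8]. Exons of Piezo1 overlap those of Ctu2 on the other strand over 24.6% of their length, so part of its reads cannot be told from Ctu2. Piezo2 and Trpa1, known as the touch and irritant sensors of intestinal enterochromaffin cells, were close to 0 in both libraries. Piezo2 had 0 counts in the sorted library and 2 in the depleted library, and Trpa1 had 1 and 0.

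The windows of 250 bases before the Trpv4 and Piezo1 starts are shown as the counterparts of the HCN windows, for genes lower in the sorted library. Capitals mark the GC box as before. The Trpv4 window lies at chr5:114658422-114658671 on the minus strand, has 72.0% G and C and holds 2 GC boxes. The Piezo1 window lies at chr8:122551330-122551579 on the minus strand, has 74.0% G and C, and holds 1 GC box and 1 TATA box, searched as TATAAA.
Trpv4: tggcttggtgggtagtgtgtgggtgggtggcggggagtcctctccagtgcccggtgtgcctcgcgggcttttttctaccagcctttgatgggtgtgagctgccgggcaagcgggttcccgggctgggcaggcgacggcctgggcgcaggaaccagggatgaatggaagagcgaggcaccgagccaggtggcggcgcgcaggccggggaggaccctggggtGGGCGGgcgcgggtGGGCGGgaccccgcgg
Piezo1: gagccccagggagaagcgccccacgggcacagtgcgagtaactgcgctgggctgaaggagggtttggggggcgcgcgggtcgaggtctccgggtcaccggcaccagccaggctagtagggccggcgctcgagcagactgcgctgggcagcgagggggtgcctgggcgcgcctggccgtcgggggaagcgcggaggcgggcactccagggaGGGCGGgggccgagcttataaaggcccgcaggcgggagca

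The base composition of these lower-member windows was thus as high as that of the HCN windows. RefSeq windows of 250 upstream bases were matched for 9 higher members (10 windows) and 5 lower members (7 windows). The median G and C content was 60.4% in the windows of the higher members (range 51.2% to 71.2%) and 54.4% in those of the lower members (49.6% to 74.0%), beside 52.4% over all 32851 windows. A GC box was in 3 of the 10 and 2 of the 7 windows, and in 32.7% of all windows. An E-box, searched as CAGNTG on both strands, was in 4 of the 10 and 6 of the 7 windows, of which 3 are Trpv2 windows and 2 of those overlap, and in 44.8% of all windows. The left part of the RE1 silencer element, searched as TTCAGCACC on both strands, was in none of these windows and in 0.301% of all windows. A match is a run of letters and not a shown binding site.

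**Figure D4:**
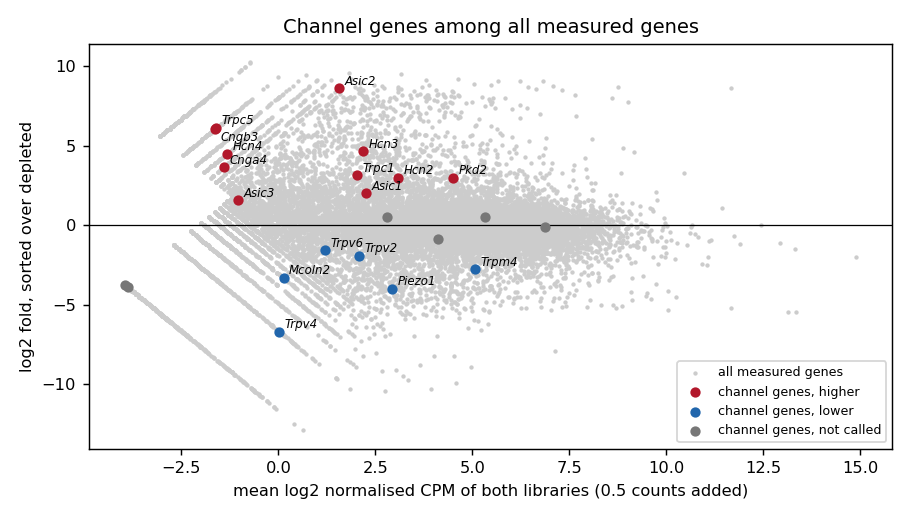
Log2 ratio of the sorted over the depleted library against the mean log2 normalised CPM of both libraries, for all 16682 measured genes (grey) and 23 measured channel genes (red higher, blue lower, dark grey not called). Asic2 lies near the upper edge of the cloud and Trpv4 and Piezo1 below it, while Trpm7 lies close to 0 among the more abundant genes.

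Within the sorted library the channel gene with the highest level per kilobase was Asic2, at 13.7 CPM per kilobase. It was followed by Trpm7 at 9.92, Hcn2 at 7.40, Mcoln1 at 6.32, Pkd2 at 6.30 and Hcn3 at 5.48 CPM per kilobase. Neighbours in this order differed beyond counting error except Mcoln1 and Pkd2, whose ratio was 1.0 [0.899 to 1.12]. After a gap of 3.30-fold [2.65 to 4.13] came Asic1, Trpc1, Pkd2l2, Trpm4 and Trpm2, from 1.66 down to 1.02 CPM per kilobase, with no neighbours separated. Below them, from Cngb3 at 0.558 CPM per kilobase downward, neighbours were not separated either.

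The order differed in the depleted library. Trpm7 led at 10.9 CPM per kilobase, followed by Trpm4 at 8.20, Mcoln1 at 4.47, Piezo1 at 3.10 and Trpv4 at 2.56 CPM per kilobase, each separated from the next. Trpm2 at 1.89 and Trpv2 at 1.84 CPM per kilobase were not separated, nor were neighbours among Mcoln2, Trpv6, Pkd2l2, Hcn2 and Pkd2, from 1.06 down to 0.795 CPM per kilobase. Asic2, first in the sorted library, ranked 20 in the depleted library at 0.0313 CPM per kilobase. Summed over all 44 members, the level was 409 CPM in the sorted library against 350 CPM in the depleted one.

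The lower members stood beside lower marker lists of other cell types. Trpv4, Piezo1, Trpm4, Trpv2, Trpv6 and Mcoln2 were lower, as were the parietal, surface mucous, tuft and macrophage lists whose sums are given above. In the chief cell list 2 of 4 markers were lower. Which list, if any, goes with which gene was not tested. Pou2f3, Ptgs1 and Il25 of the tuft list had 0 counts in the sorted library. Among lists for stromal and other cells, fibroblast markers summed to 0.575 CPM in the sorted library and 18 CPM in the depleted library (4 of 5 measured lower, with Col3a1 and Pdgfra at 0 in the sorted library), and smooth muscle markers to 1.97 and 4.34 CPM (2 of 3 measured lower and 1 higher, with Actg2 and Des at 0 in the sorted library). Endothelial markers summed to 2.55 and 4.45 CPM (2 of 4 lower and 1 higher), T and B cell markers to 0.411 and 3.05 CPM (1 measured, lower) and the 2 interstitial cell of Cajal markers to 66.4 and 137 CPM (1 lower). Their part in the channel values was not tested.

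A second list held 56 genes for partners, auxiliary subunits and upstream enzymes of these channels and for other candidate mechanosensitive channels. Of these, 54 were found and 50 measured, with 11 higher (22%) and 15 lower (30%) in the sorted library, and a median log2 ratio of -0.50. Over all measured genes 21.9% were higher and 21.9% lower. The partner list was chosen with earlier results of these data known, so its shares are not read as a result about partner genes. Among polycystin-1 relatives, Pkd1l1, whose protein pairs with polycystin-2 in cilia of the embryonic node, had 1563 and 21 counts, or 128 and 0.468 CPM, a ratio of 274.5 [179 to 445]. Its interval overlaps those of Asic2 and Hdc, and per 1000 Hdc counts it had 14.7 counts in the sorted library and 22.1 in the depleted library. Pex5l, which encodes the auxiliary subunit TRIP8b of HCN channels, had 2638 and 196 counts, or 217 and 4.37 CPM, a 49.6-fold difference [42.9 to 57.7]. Both genes were thus higher in the same library as Pkd2, Hcn2, Hcn3 and Hcn4. Pkd1 itself, chosen after its values were seen, had 2123 and 2377 counts, or 174 and 52.9 CPM, a 3.29-fold difference [3.10 to 3.49].

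Among other candidate mechanosensors, Tmem150c, proposed as a modulator of mechanically activated currents, had 96 counts in the sorted library against 1 in the depleted one, a ratio of 354 [62.0 to 14126]. Tmem63c, of a family of osmotically and mechanically activated channels, had 299 and 10 counts, a 110-fold difference [59.1 to 232]. Scnn1b, the beta subunit of the epithelial sodium channel that is related to the ASICs, had 120 and 35 counts, a 12.6-fold difference [8.61 to 19.0]. These 3 genes were higher in the sorted library, while Mdfic and Tmc7 were lower. Mdfic, an auxiliary subunit of PIEZO channels, was 8.61-fold lower [5.25 to 15.2], beside the lower Piezo1. Tmc7, of the family that holds the hair cell transduction channel, was 5.77-fold lower [4.91 to 6.84]. Tmem63a, at 211 CPM in the sorted library and 377 CPM in the depleted library, was 1.78-fold lower, under the threshold.

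Phospholipase C enzymes act before TRPC channels, and IP3 receptors release stored calcium. Of the 7 phospholipase C genes listed, Plcb4 and Plcg2 were higher in the sorted library, Plcb2, Plcb3 and Plcd1 were lower, and Plcb1 and Plcg1 were not called. Of the 3 IP3 receptor genes, Itpr3 was lower and Itpr1 and Itpr2 were not called. Plcb2, the enzyme of taste and tuft cells, had 1 count in the sorted library against 714 in the depleted one, a ratio of the depleted over the sorted library of 194 [34.6 to 7658]. Plcd1 was 7.58-fold lower among sorted cells [5.55 to 10.6], whereas Plcb4, chosen after its values were seen, was 7.71-fold higher [7.06 to 8.43]. Itpr3, the IP3 receptor of secretory epithelium, had the highest level per kilobase of the partner list in the depleted library (99.8 CPM per kilobase) and was 4.56-fold lower among sorted cells [4.37 to 4.75]. Kcne2, a potassium channel subunit that parietal cells need for acid secretion and that can also join HCN channels, was 5.11-fold lower [4.5 to 5.83]. Kcne2 is itself in the parietal cell list, which was lower in the sorted library as a whole.

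**Figure D5:**
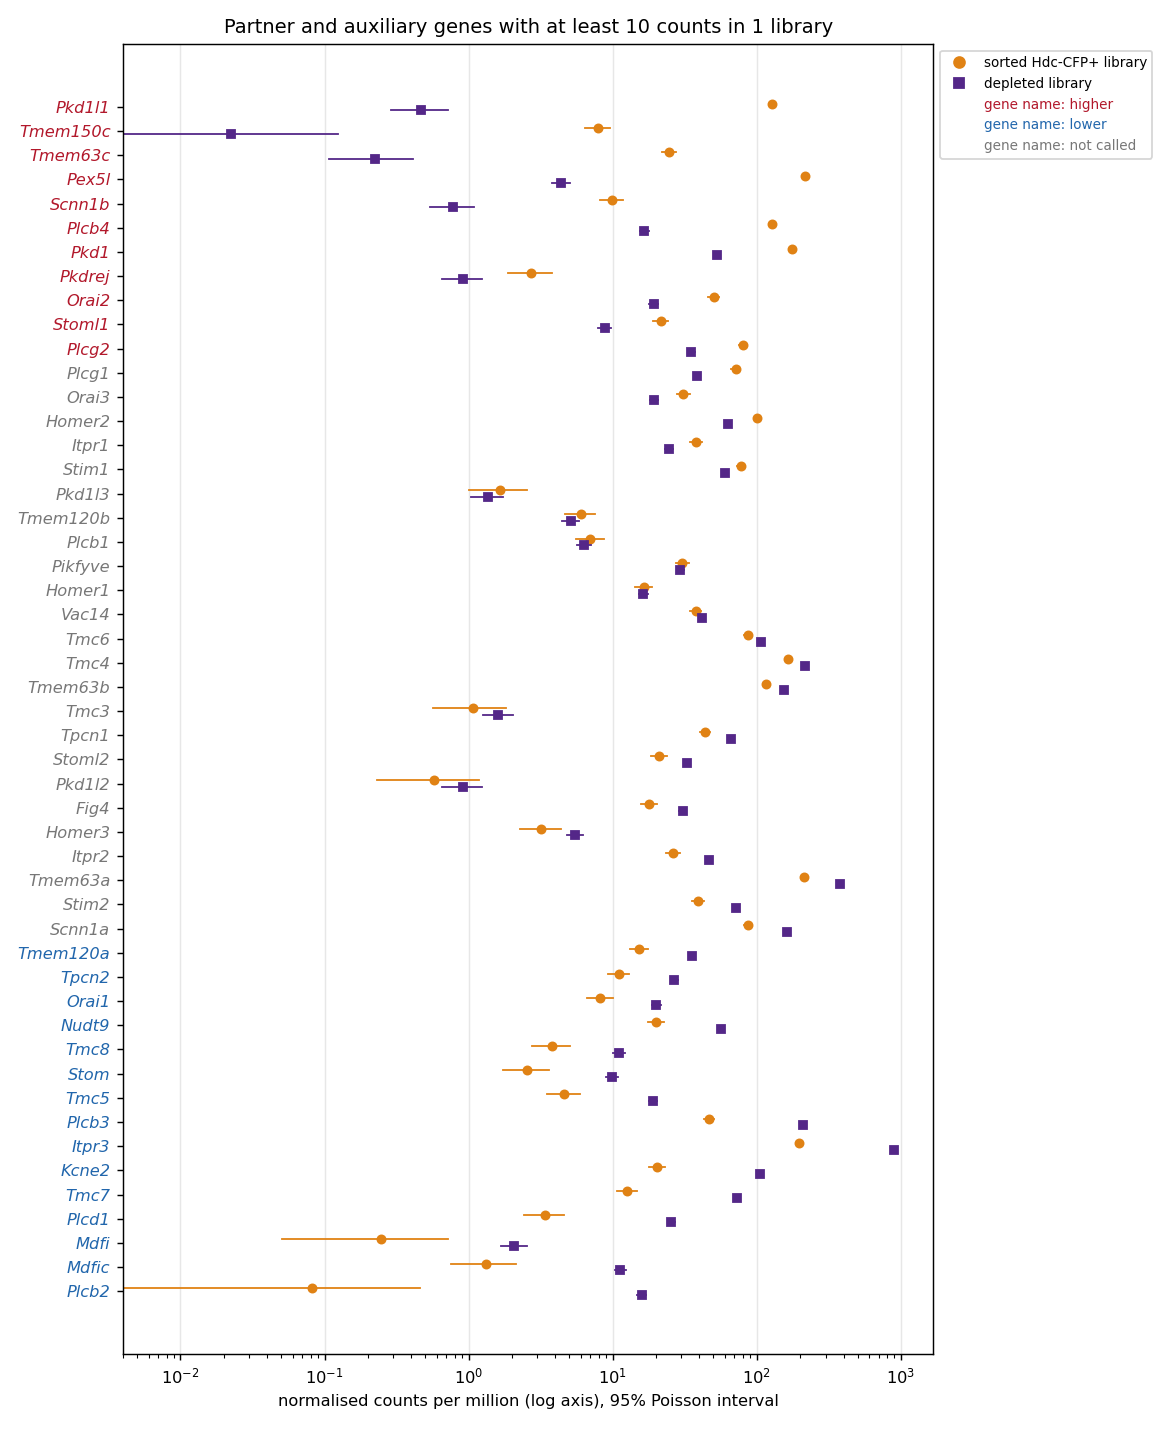
Normalised CPM (log axis) of the 50 measured partner genes in the sorted library (orange circles) and the depleted library (purple squares), with exact 95% Poisson intervals cut at the left edge for genes with 1 count. Genes are ordered by log2 ratio with 0.5 counts added, from Pkd1l1 (128 against 0.468 CPM) at the top to Plcb2, with 1 count in the sorted library, at the bottom.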

How the data were processed

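RNA from 2 libraries, 1 per group, was analysed. The deposited files hold raw counts of reads per Ensembl gene, 1 file for each library. RNA was isolated with the RNeasy kit and TruSeq RNA libraries were prepared, per the labels' protocols. Per the submitters' processing notes, TopHat2 2.0.07, HTSeq and the mm9 genome were used. The HTSeq version, strand setting, annotation release and length of the reads are not given in the sources used here. These files also hold 5 summary rows that name no gene, which were left out: reads outside genes (9.20% of alignments in the sorted library against 4.91% in the depleted one), ambiguous reads (1.45% and 1.11%) and multiple alignments (24.2% and 34.3%). Reads shared by near-identical genes are therefore missing from the counts.

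Symbols and exon lengths came from GENCODE M21 (GRCm38), which named 32642 of 37681 identifiers, and upstream sequences from RefSeq (GRCm38.p6). The files carry no coordinates. Scaling used edgeR 4.0.16 (R 4.3.3) TMM factors over genes with at least 10 counts in at least 1 library, 1.134 for the sorted library and 0.882 for the other. Each ratio has an exact Clopper-Pearson 95% interval and each CPM an exact Poisson interval. A count of 0 was replaced by a floor of 3 counts when calling, and 0.5 counts were added for medians. Opposite-strand overlaps were computed from the exons. The scripts were tested on simulated data.

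The members, the partner list, the marker lists and these rules were chosen with earlier results of these data known. Members are named, except 2 that enter the counts over all members and are not reported here. Partner genes are named as the 5 per direction whose interval end nearest 1 lay farthest from 1. Those with the 3 highest levels per kilobase in the depleted library are named too. Any other partner gene was named with its values in view, including the remaining phospholipase C, IP3 receptor and store-operated entry genes. Alternatives were other scalings (library total, DESeq2 1.42.0 size factors, upper quartile, a total without the 20 most abundant genes and, added after seeing the data, TMM factors over all listed genes), count minimums, a stricter call and other treatments of 0 counts.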

Additional observations from a re-analysis of the deposited data

How the results depend on the processing

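No paired analysis was possible because each group holds 1 library, and for the same reason no library could be left out. Over the 5 other scalings, 120 ratios of the 24 measured members were recomputed: 0 calls differed, so the same 12 members were higher and the same 6 lower. Trpm7 (0.842 to 1.17) and Mcoln3 (0.932 to 1.29, with its 0 sorted counts set to 3) turned direction, and neither was called. The scalings moved the median log2 ratio of all genes by -0.11 to 0.36. With the library total and no factor, 28.4% of all genes were called higher and 16.7% lower, beside 21.9% and 21.9%. Partner genes called higher numbered 11 to 14 and lower 12 to 16 over the scalings. With no filter on low counts the median log2 ratio of 38 members was 2.25, beside -0.04 over all genes. Of these 38, 14 were called higher and 6 lower, beside 18.9% and 16.8% of all genes. With at least 30 counts the median was 0.51 over 19 members, beside -0.07 over all genes. Of these 19, 9 were called higher and 6 lower, beside 20.2% and 24.3% of all genes. A stricter call, 4-fold with an interval beyond 2-fold, left 10 higher and 4 lower members, 6 higher and 9 lower partner genes, and 13.6% higher and 11.3% lower over all genes. The cause of these changes was not tested. The depth limits the members with 1 to 4 counts in a library, whose intervals are wide.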

Other observations

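Of the 20 members under the count minimum, 6 had 0 counts in both libraries and 14 had between 1 and 7 counts in a library. Of these 14, 8 were counted only in the sorted library, 2 only in the depleted library and 4 in both. The depleted library was 4.74 times as deep. The same split was not made over all genes, so it is not read as a trait of the members. Trpm3 (7 counts against 0) and Cngb1 (4 against 0) had the most counts among the 8. At least 1 count was found for 34 members in the sorted library and 30 in the depleted library, at least 10 counts for 20 and 18, and at least 100 counts for 11 and 13. Over all genes, at least 1 count was found for 19091 in the sorted library and 20664 in the depleted one. The tallies at 10 and 100 counts have no such figure over all genes beside them, so no result about the members is read from them.

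The higher members spanned the gene lengths of the annotation, from 4.2 kb for Cnga4 to 1088.3 kb for Asic2, with a median of 42.5 kb, beside 33.7 kb for the lower members. The median exon length was 4.86 kb for the higher and 4.28 kb for the lower members.

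Store-operated entry genes, chosen after their values were seen, moved in different directions. Orai2 was 2.61-fold higher in the sorted library. Orai1 was 2.45-fold lower, a call that was lost with the library total and no factor (1.91-fold lower). Orai3 was not called (1.59-fold higher), except with the library total (2.04-fold), and Stim1 and Stim2 were not called.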
